A study of Mus musculus with 84 samples.

Results

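Transcripts of 8 genes that carry niche signals to blood stem cells and their precursors were followed over 84 single cells of the mouse embryo: the receptors Kit, Cxcr4, Igf1r and Il6st and the ligands Kitl, Cxcl12, Csf1 and Igf1. The 8 were taken by symbol from the 20308 genes of the table, and all 8 had a row. The cells came from the aorta-gonad-mesonephros region (AGM), the part of the trunk around the dorsal aorta, at stage E11.5, counted in embryonic days. They had been sorted as positive for the endothelial proteins CD31 and CD144 and negative for CD41, found on early blood cells and platelets, and CD45, found on white blood cells. All 84 form 1 group with no treatment, no mutant and no second stage to compare, and no strain or embryo is given for any cell. They are therefore 1 sample here, and no test between conditions exists. Ranges in parentheses after a share of cells are 95% intervals (exact, Clopper-Pearson) for the error of counting cells alone. The sort removed cells that had already gained CD41 or CD45 protein, and the capture chip took cells of 10 to 17 µm, so blood cells past those steps and cells of other sizes lie outside the sample.

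As background, the first blood stem cells of the mouse arise in the AGM from endothelium of the dorsal aorta, among mesenchyme and sympathetic cells that supply signals. Kit is a receptor tyrosine kinase of blood, germ and pigment cells, and its ligand Kitl (stem cell factor) is made by niche cells as a membrane-bound or a released protein. Cxcl12 is a chemokine that draws and holds cells bearing its receptor Cxcr4, while Ackr3 binds Cxcl12 and takes it out of the surroundings. Igf1 and Igf2 are growth factors that act through Igf1r, Csf1 is the growth factor of macrophages, and Il6st (gp130) is the signalling chain shared by receptors for interleukin 6, Lif, oncostatin M and interleukin 11.

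The Kitl gene shows why a gene's level says nothing of the form of its protein. Kitl (chromosome 10, 100015615 to 100100416, GRCm38) has 4 coding transcripts in GENCODE vM21, and a coding exon of 84 bases (exon 6 of 10, chr10:100080857-100080940, plus strand) is in at least 1 of them and skipped in another. As background, this exon carries the site at which the protein is cut loose from the membrane. The deposited value pools the forms, so the exon is shown for what the values cannot separate.
Kitl exon 6: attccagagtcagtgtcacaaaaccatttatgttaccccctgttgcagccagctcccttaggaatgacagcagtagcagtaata

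The starts of the 8 genes differed in base composition, and those of the 2 genes at the ends of the detection range are shown. Of 32851 RefSeq promoter windows of GRCm38.p6, here the 250 bases before a start, the median held 6 CG pairs and the quartiles 2 and 16. Igf1r, detected in every cell, held 42 (chr7:67952007-67952256, plus strand), and 0.865% of all windows held as many or more. Cxcr4, detected in the fewest cells, held 19 (chr1:128592300-128592549, minus strand), also above the upper quartile. Both are printed with CG in capitals.
Igf1r: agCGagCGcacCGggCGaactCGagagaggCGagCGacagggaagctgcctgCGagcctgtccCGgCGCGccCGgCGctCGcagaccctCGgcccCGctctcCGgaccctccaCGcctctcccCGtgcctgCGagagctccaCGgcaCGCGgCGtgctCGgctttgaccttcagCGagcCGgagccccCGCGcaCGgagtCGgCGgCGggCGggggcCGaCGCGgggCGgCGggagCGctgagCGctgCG
Cxcr4: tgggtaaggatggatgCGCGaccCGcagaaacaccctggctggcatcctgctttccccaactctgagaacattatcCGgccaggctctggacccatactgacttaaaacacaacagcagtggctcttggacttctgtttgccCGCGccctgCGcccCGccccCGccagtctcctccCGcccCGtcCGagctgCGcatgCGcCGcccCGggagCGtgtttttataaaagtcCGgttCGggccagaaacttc
Among the others, Il6st held 26, Kitl 23, Kit 17 and 18 for its 2 listed starts, Cxcl12 14, Csf1 10 and Igf1 5. Igf1 was detected in nearly every cell with a CG count near the median (49.6% of all windows held as few or fewer). Cxcr4 held more CG pairs than either start of Kit, which was detected in more cells. The CG count therefore did not order the genes by detection. The single start listed for Igf1 lies within the gene, and its window overlaps exons of other Igf1 transcripts. The Kitl window (chr10:100015571-100015820) also lies largely past the first listed base of its gene, 100015615. The window of the second Kit start runs slightly past the first base of Kit. The letters TATAAA, searched on both strands, were found at 1 place each in the Cxcr4 and Kitl windows (in Cxcr4 that place reads the same on both strands), against 12.4% of all windows with at least 1 match, and GGGCGG was found in 7 of the 8 genes (all but Igf1), against 32.7%. CCGGAA was found in Kitl and Il6st (12% of all windows), and AGATAA and ACGTG in 0 of the 8 genes (9.99% and 16.6%). These matches describe letters in the window only.

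The values are TPM, the share of a cell's transcripts that a gene takes up, scaled to a common total, which adjusts for gene length, so levels of different genes can be set side by side. Detection in a cell here means a TPM of at least 1. Between 3334 and 10073 genes were detected per cell, with a median of 6978. Pecam1, which encodes CD31, was detected in 80 cells and Cdh5, which encodes CD144, in 82, while Ptprc (CD45) was detected in 0 and Itga2b (CD41) in 7. Detection in every cell was not by itself a mark of a gene active in endothelium: the pigment gene Tyr was detected in all 84 cells (median 156 TPM), and so was the pluripotency gene Nanog (median 153 TPM). Of 1406 odorant and vomeronasal receptor genes, 1351 were detected in 0 cells and 6 in 42 or more. How far such background enters the genes found in all or nearly all cells, Igf1r, Lifr and Il11 among them, was not tested.

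Markers of other cell types were present in this sort. Counting a marker at TPM 10 or more, 35 cells held at least 3 of 12 mesenchyme markers, led by the collagens Col1a2 (42 cells at TPM 1) and Col3a1 (41 cells). Clustering that used none of the listed genes set 13 cells apart from 71. The 13 were called mesenchyme-like because the 12 mesenchyme genes averaged higher in them. That average is therefore no separate support for the name. Each of the 12 genes had a higher mean in these cells. A median of 9 of 17 endothelial markers reached TPM 10 there (0 to 14), against 15 (8 to 17) in the other cells. Of the 35 cells with at least 3 mesenchyme markers, 23 lay outside the cluster. Cells there held up to 9 such markers, and cells inside up to 7. Apart from listed genes, Crabp1, Crabp2, Gpc3, Sfrp1 and Gsta4 led the cluster. One of the 13, cell 79, held no mesenchyme marker, 14 endothelial markers and 8 of 10 germ cell markers, so results on the cluster are also given without it. All 7 mast cell genes were detected in 0 cells, and 0 cells held 3 macrophage markers. At least 3 markers were held by 14 cells for the germ cell list of 12 genes, 4 for the neural, 3 for the megakaryocyte, 2 each for the erythroid and epithelial and 1 for the smooth muscle list. The platelet gene Pf4 reached 35696 TPM although the sort was against CD41. The widest detected genes of the other lists were Tagln (14 cells) and Acta2 (12) for smooth muscle, Cx3cr1 (47, at most 6.42 TPM) and Mrc1 (12) for macrophages, Pf4 (18) and Gp1bb (8) for megakaryocytes, and Alas2 (14) for red cells. For epithelium they were Epcam (7) and Wt1 (6), for neural cells Stmn2 (25) and Elavl4 (21), for pigment cells Tyr and Sox10 (4), and for germ cells Nanog and Ifitm3 (54).

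The 8 genes fell into a broadly detected and a sparsely detected set. Igf1r was detected in 84 of 84 cells, Igf1 in 80, Kitl in 66, Il6st in 62 and Kit in 58, while Cxcl12 was detected in 25, Csf1 in 23 and Cxcr4 in 21. A median gene of the table was detected in 16 cells. By median level the order was Igf1 (259 TPM), Kitl (40.6), Igf1r (31.5), Kit (5.84) and Il6st (4), with medians of 0 for Cxcl12, Csf1 and Cxcr4. Igf1 was above Kitl in 69 cells and Igf1r above Kit in 66. Neighbours overlapped elsewhere: Kitl was above Igf1r in 46 cells and below it in 38, and Kit was above Il6st in 35 and below it in 48. Most cells held a middling number of the 8 genes: 27 cells held 5, 19 held 4 and 19 held 6. Only cell 80 held all 8, and 3 of the 4 cells with 2 genes belonged to the mesenchyme-like cluster.

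**Figure D1:**
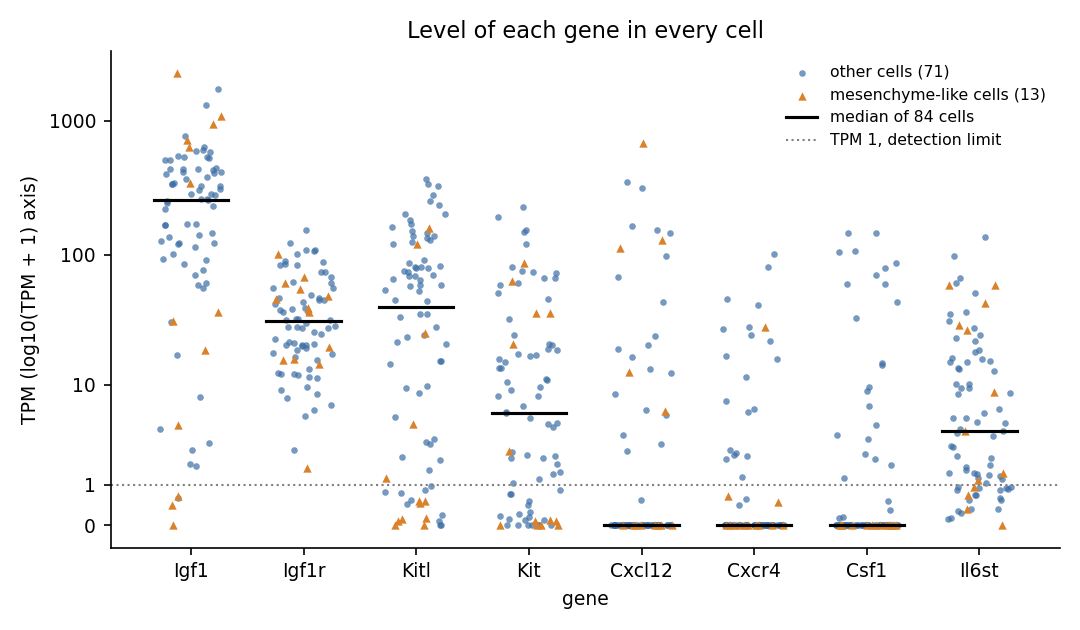
Level of each of the 8 genes in all 84 cells, as TPM on a log10(TPM + 1) axis. Circles are the 71 other cells, triangles the 13 mesenchyme-like cells, black lines the medians of all cells and the dotted line TPM 1. Igf1, Igf1r and Kitl lie above the line in most cells, and the medians of Cxcl12, Cxcr4 and Csf1 are 0.

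**Figure D2:**
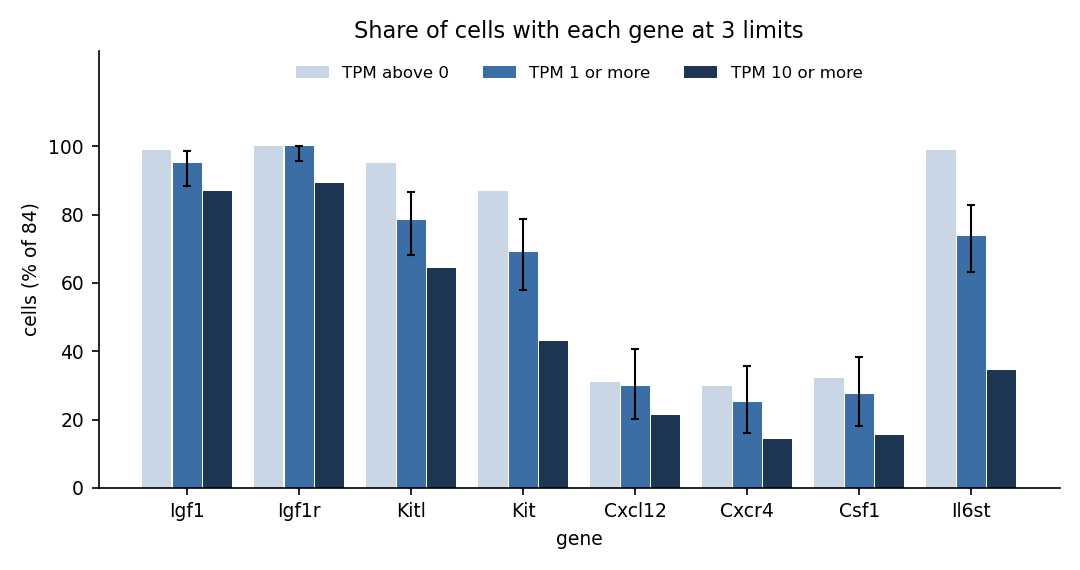
Share of the 84 cells, in percent, in which each gene was above 0, at TPM 1 or more or at TPM 10 or more, with exact 95% intervals on the middle bar. Il6st drops from 98.8% to 34.5% between the lowest and the highest limit, while Cxcl12, Cxcr4 and Csf1 are above 0 in 26, 25 and 27 cells.

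Kitl, the ligand of Kit, was detected in 78.6% of the cells (68.3% to 86.8%). It ranged from 0 to 367 TPM with a median of 40.6, and 21 cells reached TPM 100. Its 5 highest cells, at 254 to 367 TPM, all held 0 mesenchyme markers and 13 to 17 endothelial markers. The gene whose level followed Kitl most closely was Cd93, a receptor of endothelial and myeloid cells, with a Spearman correlation of 0.611 over the 84 cells and 0.603 over the 71. Vamp5 (0.536) and Snx3 (0.531) came next, of 9682 genes compared, and 4 genes reached 0.5. The cells of such a comparison share their library's complexity, so it is a description. Of 10 endothelial markers detected in 5 to 79 cells, all 10 were found with Kitl more often than independent detection gives. Over 10340 genes that share was 64.3%, and of 12 mesenchyme genes only 2 were. The excess was small. The median ratio of observed to independent counts was 1.07 for the endothelial markers, against 1.02 over all genes. All 10 were above 1 with Kit, Csf1 and Igf1 too, against 72.1%, 71.2% and 56.2% of all genes.

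Kit (chromosome 5, 75574987 to 75656722) was detected in 69.05% of the cells (58.02% to 78.7%), but at lower levels than its ligand. Its median was 5.84 TPM, its maximum 228.53, and 36 cells reached TPM 10. The 5 cells above TPM 100 (121 to 228.53) held 10 to 16 endothelial markers, and only the highest, cell 75, also held mesenchyme markers. That cell also had the highest Igf1r (154.71 TPM) and the second highest Cxcr4 (81 TPM). Kit marks primordial germ cells too, which migrate through this region. Nanog, listed in every cell, and Ifitm3, detected in 54, were left out of the germ cell list for this count, which lowered the cells with 3 or more markers from 14 to 3. These cells, 4, 62 and 79, had Dppa3 at 2404, 463 and 3312 TPM, and Kit at 72.9, 19.1 and 87.3 TPM. Outside these 3, Kit reached TPM 10 in 33 of 81 cells. Kit was found with hemogenic genes about as often as with other genes. Of the 10 cells with Runx1, the factor required for blood to emerge from endothelium, 7 held Kit, where independent detection gives 6.90. Over 11 hemogenic genes the median ratio of observed to independent counts was 1.03, as over all 10340 genes. No gene reached a correlation of 0.5 with Kit.

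Kitl and Kit were often present in the same cell, at the frequency that their own detection gives. Both were detected in 45 cells, or 53.6% (42.4% to 64.5%), Kitl alone in 21, Kit alone in 13 and neither in 5. Independent detection gives 45.6 cells with both, and at TPM 10 the counts were 20 observed and 23.1 independent. Within the 45, Kitl was the higher of the pair in 32. Cells with both had a median of 7239 detected genes and cells with neither 5437, so the classes also differed in how much of the transcriptome was recovered. With independence taken within the 7 sets of 12 libraries that share an index, 45.4 cells would hold both.

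The Kit signalling list, which includes Kit and Kitl themselves, was broadly present: 14 of 18 genes were detected in 42 or more cells, against 7031 of all 20308 genes. The kinase Fyn was detected in 77 cells, the adaptor Shc1 in 75 and the kinase subunit Pik3ca in 69. The phosphatase Ptpn6, known for damping Kit signals in blood cells, was detected in 7 cells. At TPM 10, 7 of the 18 genes were in 42 or more cells, against 4357 of all 20308.

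**Figure D3:**
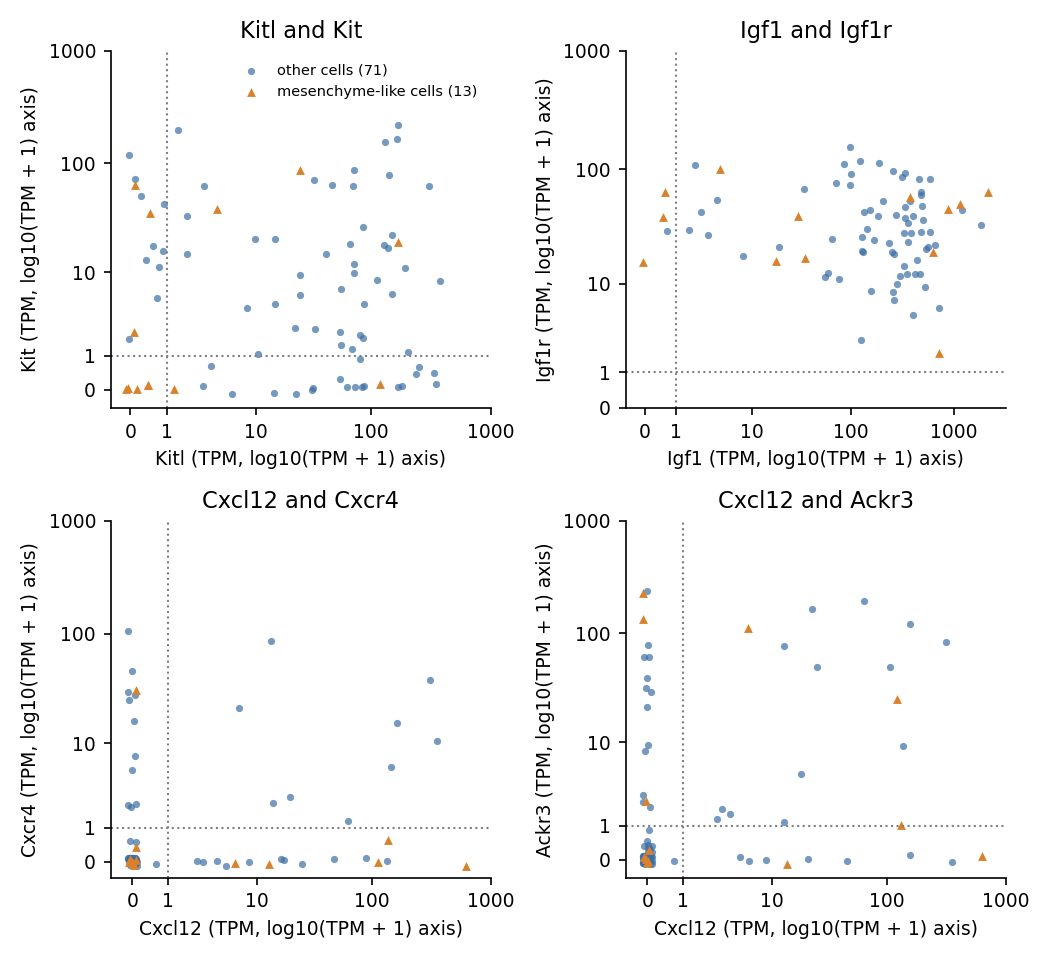
Ligand level against receptor level in each of the 84 cells for 4 pairs, both axes in TPM on a log10(TPM + 1) scale, with points moved slightly at random so that cells at 0 can be seen. Dotted lines mark TPM 1. Both genes are detected in 45 cells for Kitl and Kit, 80 for Igf1 and Igf1r, 9 for Cxcl12 and Cxcr4 and 15 for Cxcl12 and Ackr3.

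Cxcl12 (chromosome 6, 117168535 to 117181368) was found mostly in cells that also carried mesenchyme transcripts. It was detected in 25 cells, 29.8% (20.3% to 40.7%), with a median of 0 and a maximum of 678.36 TPM, and it had few low values, with 26 cells above 0 and 18 at TPM 10 or more. Of the 25 cells, 21 held at least 3 mesenchyme markers, against 14 of the 59 cells without it, and all 8 cells at TPM 100 or more did. In the 41 cells with no mesenchyme marker, Cxcl12 was detected in 1, at 6.15 TPM (2.44% of cells, 0.0617% to 12.9%). In the 8 cells with 1 or 2 markers it was detected in 3, and in the 35 with 3 or more it was detected in 21 (60%, 42.1% to 76.1%). The 3 genes closest to it over the cells were Gpc3, a surface proteoglycan (Spearman correlation 0.606), Pdgfrb, a growth factor receptor of mesenchyme and pericytes (0.599), and the collagen Col1a1 (0.597). In the 71 cells outside the cluster these were 0.663, 0.560 and 0.670. Pdgfra was found in 19 Cxcl12 cells where independent detection gives 6.85. All 12 mesenchyme genes were found with Cxcl12 more often than independent detection gives, with a median ratio of 1.89 against 1.05 over all genes, and 0 of 10 endothelial markers were (median ratio 0.917). Most of these cells also carried endothelial markers: 20 of the 25 lay outside the mesenchyme-like cluster, where every cell held at least 8 endothelial markers. Whether such cells are single cells or captures of more than 1 cell was not tested.

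**Figure D4:**
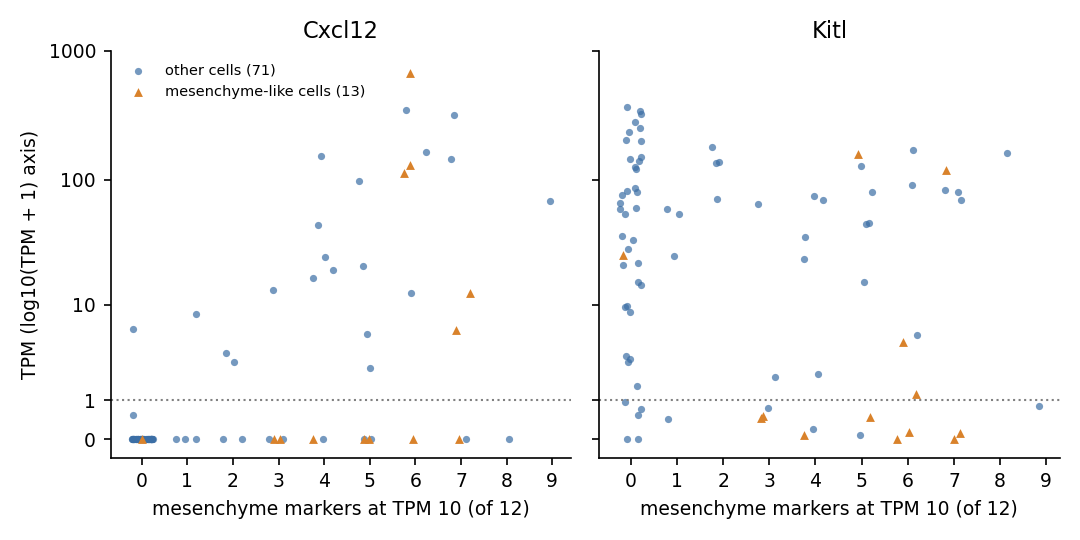
Level of Cxcl12 (left) and Kitl (right) in each of the 84 cells, in TPM on a log10(TPM + 1) axis, against the number of 12 mesenchyme markers at TPM 10 in that cell. Cxcl12 is detected in 1 of 41 cells with no marker and in 21 of 35 with 3 or more, while Kitl is detected in 36 of 41 and 23 of 35.

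Cxcr4, the receptor of Cxcl12 (chromosome 1, 128588199 to 128592299), was detected in 21 cells, 25% (16.2% to 35.6%), and reached TPM 10 in 12. Its highest cells were cell 36 at 101.87 TPM, cell 75 at 81, cell 4 at 46.8, cell 34 at 41.7 and cell 79 at 28.7, and 2 of these, cells 4 and 79, hold germ cell markers. Without the 3 cells with germ cell markers it was detected in 18 of 81. Genes regarded as arterial were found in Cxcr4 cells more often than independent detection gives. The connexin Gja4 was found in 12 of the 21 (5.75 by independence), the Notch target Hey1 in 19 (11.3) and the Notch ligand Dll4 in 11 (7.25). Of 13 arterial genes, 12 had a ratio above 1, against 67.6% of all genes, and their median ratio was 1.22 against 1.08, with 1.07 for the mesenchyme list. At TPM 10 the median ratios were 1.21 for arterial and 1.24 for mesenchyme genes, against 1.09 over all genes, so at that limit the arterial list did not stand apart from the mesenchyme list. With germ cell marker cells left out, Gja4 was found with Cxcr4 in 10 cells (4.67 by independence) and Hey1 in 16 (9.33). Among hemogenic genes Mecom was found in 17 Cxcr4 cells (11.8 by independence) and Runx1 in 4 (2.50). Procr was found in 6 (7.5), Tal1 in 6 (6.75) and Adgrg1 in 3 (3.25), below independence. Of 11 hemogenic genes, 8 had a ratio above 1, against 67.6% of all genes. The list's median ratio was 1.05, against 1.08 over all genes. The most widely detected genes of both lists, Efnb2 and Nrp1 (78 cells each), Cd34 (80) and Cbfb (78), leave little room for such ratios. Hey1 also ranked second of 9682 genes by correlation with Cxcr4 (0.467), below the limit of 0.5 that no gene reached.

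Few cells held Cxcl12 together with either receptor. Cxcl12 and Cxcr4 were both detected in 9 cells, 10.7% (5.02% to 19.4%), Cxcl12 alone in 16, Cxcr4 alone in 12 and neither in 47, and independent detection gives 6.25 with both. Of the 9, 8 held at least 3 mesenchyme markers. Ackr3, which was detected in 31 cells with up to 231.78 TPM, shared 15 cells with Cxcl12, where independent detection gives 9.23, and at TPM 10 it shared 8 against 4.07. Ackr3 cells also held mesenchyme markers more often: 19 of 31 held at least 3, against 16 of the 53 without it. Within the 35 cells with such markers, Cxcl12 and Ackr3 were both found in 13 (11.4 by independence) and Cxcl12 and Cxcr4 in 8 (5.40). Counts this small have wide intervals, and neither excess was tested. Of the 13 genes of the Cxcl12 list, 5 were in 42 or more cells, a share close to that of all genes (7031 of 20308). They were general signalling genes (the G protein subunits Gnb1, Gnai2 and Gnai3, the kinase Ptk2 and the ubiquitin ligase Itch). Cxcl14 and Dpp4, a protease that trims Cxcl12, were detected in 6 cells each.

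Igf1 had the highest median of the 8 genes. Igf1 (chromosome 10, 87858265 to 87937047) was detected in 95.2% of cells (88.3% to 98.7%) at a median of 259 TPM and a maximum of 2239.45, and 97.4% of all genes had a lower mean. Its 2 highest cells, cell 56 (2239.45 TPM) and cell 34 (1728.41 TPM), held 6 and 7 mesenchyme markers. Igf1r (chromosome 7, 67952257 to 68233668) ranged from 1.67 to 154.71 TPM with a median of 31.5, and 75 cells reached TPM 10. Both were detected in 80 cells and Igf1r alone in 4, and Igf1 was the higher of the pair in 67. Since Igf1r was detected in every cell, this count is fixed by Igf1. At TPM 10 both were found in 64 cells, where independent detection gives 65.2. The Spearman correlation of their levels over the cells was -0.10.

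Much of the rest of the IGF list was present too. Igf2, the fetal growth factor, was detected in 83 cells at a median of 343 TPM, and Igf2r, which clears it, in 84 at 38.2 TPM. The insulin receptor Insr was found in 32 cells. Of the binding proteins, which hold IGFs outside cells, Igfbp4 was detected in 84 cells (393 TPM), Igfbp3 in 76, Igfbp2 in 54, Igfbp5 in 41, Igfbp7 in 10, and Igfbp1 and Igfbp6 in 2 each. The receptor adaptors Irs1 and Irs2 were detected in 16 and 11 cells, whereas the adaptor Grb10, known to restrain insulin and IGF receptors, was detected in 84 at a median of 154 TPM. Further down the pathway, the kinase Akt1 was detected in 77 cells. In all, 11 of 18 genes of the list were in 42 or more cells, against 7031 of all 20308.

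Csf1 (chromosome 3, 107741048 to 107760469) was detected in cells where its receptor almost never was. It was detected in 23 cells, 27.4% (18.2% to 38.2%), with a maximum of 146.47 TPM, and 4 cells exceeded TPM 100. Those 4 cells held 15 to 17 endothelial markers and 0 mesenchyme markers. Csf1r, its receptor and a defining macrophage gene, was detected in 1 cell at 1.33 TPM, a cell that also held Csf1 at 1.25. Il34, the other ligand of Csf1r, was detected in 0 cells, which allows a share of up to 4.30%. The related receptors Csf2ra and Csf2rb were detected in 21 and 11 cells and the adaptor Tyrobp in 2. Of the 8 genes of the Csf1 list only Grb2 and Cbl, shared with the Kit list, were in 42 or more cells. Csf1 reached TPM 10 in 13 cells, and no gene reached a correlation of 0.5 with it.

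Il6st (chromosome 13, 112464070 to 112506860) was widespread and low. It was detected in 73.8% of cells (63.1% to 82.8%) at a median of 4 TPM and a maximum of 135.25, a further 21 cells lay between 0 and 1, and 29 reached TPM 10. Its partner Lifr was detected in 84 cells at 35.6 TPM, so all 62 Il6st cells held both, 27 of them with both at TPM 10. Il11ra1 was detected in 69 cells at 47.3 TPM. The receptor Il6ra was detected in 1 cell and Osmr in 3. The ligands Il6 and Osm were detected in 0 cells, and Lif, the ligand of Lifr, in 7 with at most 1.68 TPM. The ligand Il11 was listed in 81 cells at 10.9 TPM. Among downstream genes, Jak1 was detected in 83 cells and Stat3 in 53, and Socs3, a target that feeds back on gp130, in 14. Of the 20 genes of the gp130 list, 8 were in 42 or more cells, and 4 at TPM 10, shares close to those of all genes (7031 and 4357 of 20308). Ligands and receptors of the other branches were rare: Ctf1 and Clcf1 were detected in 9 cells each, Cntfr in 5 and Cntf in 3.

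**Figure D5:**
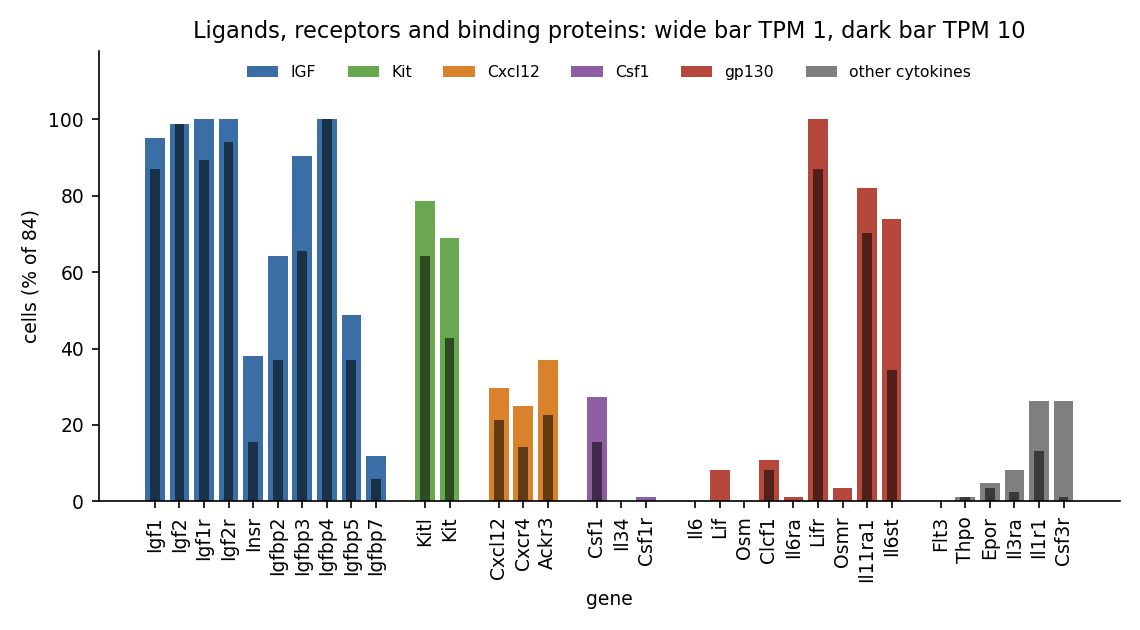
Percent of the 84 cells in which ligands, receptors and binding proteins of each signalling list were detected, wide bars at TPM 1 and narrow dark bars at TPM 10. Igf1r, Igf2r, Igfbp4 and Lifr reach 100%, and Csf1r, Il34, Il6, Osm and Flt3 are at or near 0.

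Cytokines of later blood cells were rarely detected. Of 20 genes in that list 0 were in 42 or more cells and 10 were detected in 0 cells, against 7031 and 5285 of all 20308 genes. Among the 10 were Flt3, Flt3l, Epo, Il3, Il7r, Csf2 and Csf3. Thpo was detected in 1 cell. The receptors Csf3r and Il1r1 were detected in 22 cells each, but reached TPM 10 in 1 and 11. Epor was detected in 4 cells, Il3ra in 7, Il4ra in 11, Il7 in 6, and Tnf and Ifng in 1 each.

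Against the other 71 cells, the 13 mesenchyme-like cells had less Kitl, while the differences of the other genes were smaller or depended on the settings. Of those 71 cells, 23 held at least 3 mesenchyme markers themselves. On the mean of log2(TPM + 1), Kitl, Igf1 and Csf1, 3 of the 8 genes, were lower by more than 1 log2 unit and 0 were higher by as much. Of the 12318 genes detected in 5 or more cells, 20.7% were lower by more than 1 unit in the cluster and 4.34% higher. The median difference was -0.29 over those genes and -0.67 over the 8. Kitl was detected in 5 of 13 against 61 of 71, with medians of 0.50 and 58.7 TPM and a difference of -3.03, close to the median of -3.09 over the 17 endothelial markers. The Kitl difference was -1.57 with a pseudocount of 10 and -1.55 when cells were grouped by 3 mesenchyme markers in place of the cluster. In the 7 cluster cells with 9 or more endothelial markers Kitl was detected in 3. Igf1 was detected in 10 of 13 against 70 of 71, with a difference of -1.43, which became -0.94 without cell 79, -0.72 with the 7 cells alone, -0.79 with a pseudocount of 10 and 0.07 with cells grouped by markers. Levels of Igf1 in the cluster spread from 0 to 2239.45 TPM and spanned those of all other cells. Its median was lower in the cluster (37.4 against 261 TPM) but its mean TPM higher (467 against 299), and 3 of its 5 highest cells belong there. Csf1 was detected in 0 of 13, which allows a share of up to 24.7%, against 23 of 71, with a difference of -1.42 (-0.60 with a pseudocount of 10, -0.87 by marker groups). Kit was detected in 6 of 13 against 52 of 71, with a difference of -0.76. The Kit difference became -1.11 without cell 79, -0.21 with a pseudocount of 10, -0.34 with the 7 cells alone and 0.27 by marker groups. Cxcr4 was detected in 1 of 13, the germ cell marker cell 79, against 20 of 71. Cxcl12 was detected in 5 of 13 against 20 of 71 (difference 0.92, 1.11 without cell 79, and 3.10 by marker groups). Il6st (0.27) and Igf1r (0.01) differed little. Among related genes, Igfbp5 was detected in 12 of 13 against 29 of 71, a difference of 4.33. The cluster had a median of 6328 detected genes against 7109, and the part of recovery in these differences was not tested.

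Detection was spread over the library sets. Over the 7 index sets of 12 cells, Kit was detected in 7 to 10 cells per set, Kitl in 7 to 11, Il6st in 7 to 10, Igf1 in 9 to 12, Cxcl12 in 2 to 5, Cxcr4 in 1 to 5 and Csf1 in 2 to 7. Each of the 8 genes was detected in every set. All 84 barcodes were distinct, and 0 pairs of cells had identical values.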

How the data were processed

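Single-cell libraries were made on a Fluidigm C1 chip with SMARTer chemistry and Nextera XT, with 24 of them in each lane and single reads of 67 bp, per the labels' protocols. The authors deposited TPM for 20308 genes in 84 cells. Per the submitters' processing notes, the tools were RSEM 1.2.3, Bowtie 0.12.9 and CASAVA 1.8.2 and the build was mm10. Settings and annotation are not given here. Depth cannot be read from TPM and is unknown for each cell, a value of 0 can be a missed transcript, and estimates for genes that share sequence are uncertain. RSEM divides reads between alike genes and transcripts, and no member shares an exon with another gene in GENCODE vM21.

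From these values, detection (TPM 1 or more), marker counts (TPM 10 or more), cells with 2 genes beside the product of their margins over 84, and differences of mean log2(TPM + 1) were computed with Python 3.11.15, numpy 2.4.6, pandas 2.3.3, scipy 1.17.1 and scikit-learn 1.9.0. Pairs with listed genes used genes detected in 5 to 79 cells. Clusters come from Ward's method on 10 principal components of 1000 variable genes, with the 231 listed genes left out, and 2 clusters had the highest silhouette of 2 to 6. No doublet caller was run on 84 cells. The code was tested on simulated data. Symbols Adgre1 and Adgrg1 were matched through RefSeq synonyms.

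The genes named are the 8 members, each ligand, receptor or binding protein of 6 pathway lists with the 3 other genes detected in the most cells, the 2 most widely detected genes of each of 14 marker lists, and up to 3 genes correlated with a member at 0.5 or more. Others (Runx1, Mecom, Procr, Tal1, Adgrg1, Gja4, Hey1, Dll4, Pdgfra, Dppa3, Ptpn6, Irs1, Irs2, Socs3 and the CG counts) were chosen after their values were seen. A few genes covered by this rule are not reported here. The members and lists were chosen with earlier results of these data known. Alternatives were other detection limits, other pseudocounts, rescaled values, cells left out and index sets left out.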

Additional observations from a re-analysis of the deposited data

How the results depend on the processing

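Of 192 alternatives, 153 kept their result, among them all 56 that left out 1 index set, and 1 reversed. A share was kept if it lay within the 95% interval of all 84 cells. Leaving out 12 cells moves a share little, so those 56 could hardly fail. A difference within 1 log2 unit was kept if it stayed there, whatever its sign, as for Kit (-0.76 and 0.27 by marker groups). The counts therefore do not measure how robust the results are. No paired analysis was possible because the cells form 1 group and no test was run. The detection limit moved most shares, and leaving out cells with mesenchyme or other markers moved those of Cxcl12 further. Counting any value above 0, Kit was found in 86.9% of cells, Kitl in 95.2%, Il6st in 98.8%, Igf1 in 98.8%, Kitl with Kit in 84.5% and Igf1 with Igf1r in 98.8%. At TPM 10 the shares were 42.9% for Kit, 64.3% for Kitl, 14.3% for Cxcr4, 15.5% for Csf1, 34.5% for Il6st, 89.3% for Igf1r and 86.9% for Igf1. At that limit both genes were found in 23.8% of cells for Kitl and Kit, 4.76% for Cxcl12 and Cxcr4, 76.2% for Igf1 and Igf1r and 9.52% for Cxcl12 and Ackr3, and 7 Kit, 1 Csf1 and 4 gp130 list genes were in 42 or more cells.

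In the 39 cells without 3 markers of any other type (the full germ cell list included), Kitl was found in 87.2%, Cxcl12 in 10.3%, Cxcl12 with Cxcr4 in 2.56% and Cxcl12 with Ackr3 in 5.13%. In the 49 cells with under 3 mesenchyme markers, an alternative chosen after seeing the data, these were 87.8%, 8.16%, 2.04% and 4.08%. The difference of mesenchyme-like from other cells was called beyond 1 log2 unit. With cells grouped by 3 mesenchyme markers in place of the cluster it was 3.10 for Cxcl12, -0.87 for Csf1 and 0.066 for Igf1 (reversed), and with a pseudocount of 10 it was -0.60 for Csf1 and -0.79 for Igf1. With median-of-ratios scaling it was 1.01 for Cxcl12. Leaving out cell 79, also chosen after seeing the data, gave -1.11 for Kit, 1.11 for Cxcl12 and -0.94 for Igf1, and the 7 cluster cells with 9 endothelial markers, likewise chosen afterwards, gave 1.38 for Cxcl12 and -0.72 for Igf1. The Kitl difference stayed beyond 1 unit in every alternative run. Apart from the change in which cells are compared, the cause was not tested. TPM gives no depth, so no limit of detection can be given for a single cell.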
